A study of Mus musculus with 16 samples.

Results

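Control libraries of mouse CD8 T cells recovered from tumours were compared here, 4 labelled MockUP and 4 labelled MockDN, which are 8 of the 16 RNA-seq libraries in the series. They were taken by their sample titles, and no measured value entered the choice. All 16 libraries came from OT1 cells of the C57BL/6 strain, CD8 T cells whose transgenic receptor recognises an ovalbumin peptide, which were transferred into tumour-bearing mice and recovered after 5 days. The series' other 8 libraries, Foxp3UP and Foxp3DN, are the cells given Foxp3, and Mock cells are the controls without it. The mice are described as having received Foxp3UP and Mock cells as a mixture, and the cells were sorted from tumour suspensions by CD8, by CD45.1 and/or CD90.1 and by a dead-cell dye. The meaning of UP and DN, the means by which Foxp3 was introduced, the tumour, and whether the numbered replicates came from separate animals are not stated in the labels used here. P-values therefore measure only the spread between these libraries, which may be technical.

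A cytotoxic CD8 T cell kills by releasing granzymes through perforin pores, and it secretes interferon gamma and chemokines when its receptor is engaged. Interferons, whether made by the T cells or by their surroundings, act through JAK kinases and STAT factors to raise a large set of antiviral genes. Many of these genes carry a promoter element whose core repeats GAAA, which is bound by a transcription factor complex that type I interferon activates.

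Totals ran from 9389477 to 12573361 counts over the 8 control libraries. The beta chain of the OT1 receptor was visible in each of them: Trbv12-1 took 97.7% to 98.9% of all counts on beta-chain variable segments. Trav14 segments, the family of the OT1 alpha chain, took 11.5% to 15.9% of the 518 to 825 counts on alpha-chain variable segments. The cause of that lower share was not tested. Cd8a lay between 682 and 1210 CPM (counts scaled to library size, here after correction by the trimmed mean of M-values, TMM), while Cd4 lay between 0.184 and 0.662. Foxp3 was low in both groups, at 11.5, 13.0, 13.7 and 11.5 TMM-scaled CPM in MockUP and 12.6, 13.4, 11.0 and 14.6 in MockDN. MockUP replicate 2 stood apart from the other 7 libraries. Its 10 most abundant genes held 4.86% of its counts, against 5.91% to 6.35% elsewhere, and long genes were relatively higher in it (the correlation across genes of log level with log length was 0.41, against 0.301 to 0.350). Mitochondrially encoded genes took 0.278% of its counts, against 0.358% to 0.708%. Results of the comparison are therefore given with and without that library.

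Between MockUP and MockDN a single gene passed the test, out of 13711 tested (0.00729%), with edgeR's quasi-likelihood test at a Benjamini-Hochberg adjusted p under 0.05. That gene was Thy1 (chromosome 9, 44043384 to 44048579, mm10), which encodes CD90. The 4 MockUP libraries held 783, 578, 1130 and 1180 TMM-scaled CPM of Thy1, and the 4 MockDN libraries 186, 142, 196 and 181. The groups did not overlap, and the log2 fold change was 2.38 ± 0.19 (SE, adjusted p = 4.17e-06), 5.21-fold. Without MockUP replicate 2 it was 2.54, and Thy1 was again the only call, 1 of 13941 genes (0.00717%). CD90.1 is a form of the Thy1 protein and was one of the markers used for sorting, so the difference is not counted as a finding, and the part of sorting in it was not tested. The Foxp3UP and Foxp3DN libraries held 50.6 to 72.7 TMM-scaled CPM of Thy1, below all 8 control libraries.

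No gene of the 37 lists read here (26 of functions or identity, 11 of markers of other cells) passed the test, with all 8 libraries or without MockUP replicate 2. At an unadjusted p under 0.05, edgeR's test put 235 genes lower in MockUP (1.71% of those tested) and 198 higher (1.44%). Without MockUP replicate 2 these were 477 lower (3.42%) and 191 higher (1.37%). The median standard error of a log2 fold change was 0.18, and the median log2 fold change over all genes tested was 0.01.

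The interferon response list had the lowest median log2 fold change of the 26 lists other than markers of other cells, and the next lowest was -0.13. All 46 of its 47 genes that were tested had a negative log2 fold change, with a median of -0.40 (-0.97 to -0.01), and none was called by edgeR (smallest adjusted p = 0.128, for Rsad2). At an unadjusted p under 0.05 there were 31 of the 46 lower in MockUP and none higher, against 1.71% and 1.44% of all genes. All 4 MockUP libraries lay below all 4 MockDN libraries for 25 of the 46, against 1.09% of all genes, and above them for none, against 0.751%. The untested member was Oas1g, which was filtered out for low counts. That this list is low in the MockUP libraries was known from earlier results of these data when it was chosen, so its counts are a description and not independent support. Since none of its genes was called by edgeR, the members named here, other than Isg15, were chosen after their values were seen, first those that DESeq2 called.

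The promoters of 3 members are printed here because they show the element these genes have in common. They are the 250 bases before the RefSeq transcription start, in GRCm38.p6 coordinates, written 5′ to 3′ on the gene's strand, with each match to the motif in capitals. The motif searched was GAAA, any 2 bases, then GAAA again, on either strand, so that it reads TTTC, 2 bases, TTTC in the other orientation, and overlapping matches run together.
Rsad2, chr12:26456453-26456702, minus strand: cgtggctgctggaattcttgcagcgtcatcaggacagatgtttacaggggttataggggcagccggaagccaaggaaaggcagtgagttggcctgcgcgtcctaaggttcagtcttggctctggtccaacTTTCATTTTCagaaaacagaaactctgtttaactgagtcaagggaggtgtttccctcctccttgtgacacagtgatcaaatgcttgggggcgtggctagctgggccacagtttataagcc
Ifit1, chr19:34640639-34640888, plus strand: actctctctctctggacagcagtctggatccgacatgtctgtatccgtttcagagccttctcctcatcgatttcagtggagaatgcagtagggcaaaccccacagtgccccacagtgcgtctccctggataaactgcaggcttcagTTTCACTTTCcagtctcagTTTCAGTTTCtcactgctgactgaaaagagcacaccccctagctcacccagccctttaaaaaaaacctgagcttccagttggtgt
Isg15, chr4:156200819-156201068, minus strand: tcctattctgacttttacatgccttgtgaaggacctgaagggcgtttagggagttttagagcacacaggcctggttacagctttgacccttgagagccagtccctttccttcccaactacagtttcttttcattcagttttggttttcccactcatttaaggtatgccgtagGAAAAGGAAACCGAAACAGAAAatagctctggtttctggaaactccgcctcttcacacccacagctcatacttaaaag
Rsad2 held 1 match, Ifit1 held 2 and Isg15 held 3 overlapping ones. Between the nearest match and the start lay 110 bases in Rsad2, 75 in Ifit1 and 56 in Isg15. Of the 46 tested members, 33 had a promoter window in the RefSeq table (300 bases, from 250 before to 50 after the start), and 20 of those 33 held the motif (60.6%), against 3.99% of the 27025 genes in the table. The motif did not separate members by the size of their difference: the median log2 fold change was -0.40 in the 20 members with it and -0.43 in the 13 without it. A match is a string of letters and not a shown binding site.

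Rsad2 encodes viperin, an antiviral enzyme. Its level was 101, 113, 138 and 85.1 TMM-scaled CPM in MockUP and 204, 197, 195 and 240 in MockDN. Every MockUP library was below every MockDN library, and the log2 fold change was -0.93 ± 0.16 (SE, 95% interval -1.25 to -0.62). The edgeR adjusted p was 0.128 over all 8 libraries, 0.297 without MockUP replicate 2, 0.0316 without MockUP replicate 3 and 0.0182 with no filter on low counts. DESeq2 gave Rsad2 an adjusted p of 0.000107. In the other cells of the series its level was 109 to 177 in Foxp3UP and 215 to 282 in Foxp3DN.

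Cmpk2, a mitochondrial nucleotide kinase whose gene neighbours Rsad2 on chromosome 12, had 78.4, 82.7, 85.0 and 60.4 TMM-scaled CPM in MockUP and 128, 124, 104 and 124 in MockDN. The groups did not overlap, and the log2 fold change was -0.65 ± 0.13 (edgeR adjusted p = 0.376, DESeq2 adjusted p = 0.00606). Ifit1, which binds viral RNA lacking the host cap modification, had 139, 159, 187 and 133 in MockUP and 291, 283, 204 and 264 in MockDN. Its highest MockUP library, replicate 3, was just under its lowest MockDN library, also replicate 3, and the log2 fold change was -0.76 ± 0.17 (edgeR adjusted p = 0.472, DESeq2 adjusted p = 0.0254). Isg15, a ubiquitin-like protein attached to other proteins after interferon, had 47.0, 28.4, 69.6 and 49.0 in MockUP and 94.4, 76.9, 79.0 and 87.6 in MockDN. MockUP replicate 2 was the lowest library for Isg15, and leaving it out moved the log2 fold change from -0.80 to -0.62 (edgeR adjusted p = 0.557 and 0.49).

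Irf7, the transcription factor that amplifies type I interferon production, had 213, 237, 271 and 205 TMM-scaled CPM in MockUP and 345, 307, 304 and 312 in MockDN. Its log2 fold change was -0.45 ± 0.11 (edgeR adjusted p = 0.557), and the groups did not overlap. Ifit1bl1, a relative of Ifit1 in the same cluster on chromosome 19, had 28.2, 36.9, 50.2 and 32.3 in MockUP and 56.9, 71.9, 62.7 and 84.9 in MockDN (log2 fold change -0.90 ± 0.22, edgeR adjusted p = 0.557). Ifit3 and Ifit3b, also in that cluster, are near-identical copies whose reads the counting may have split, and stood at -0.69 and -0.73 without overlap. Mx2 and Oas2, a dynamin-like GTPase and a sensor of double-stranded RNA, were at -0.97 and -0.90 but at low levels, below 25 TMM-scaled CPM in all 8 libraries.

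**Figure D1:**
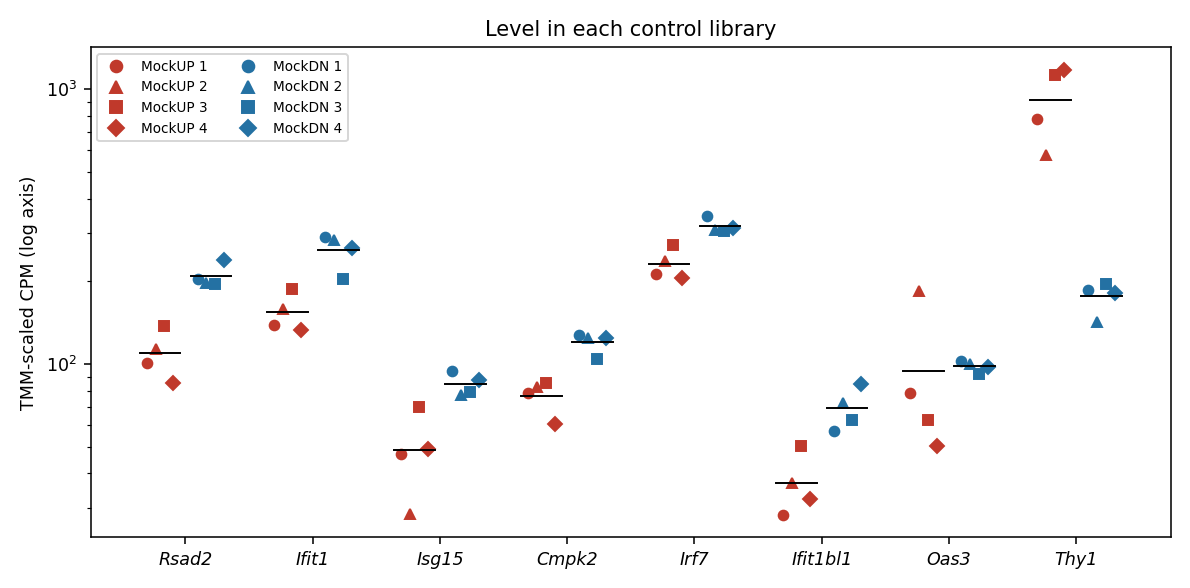
TMM-scaled CPM (log axis) of 7 interferon response genes and of the sort marker gene Thy1 in each MockUP (red) and MockDN (blue) library, with the marker shape giving the replicate and the line the group mean. The 4 MockUP libraries lie below the 4 MockDN libraries for 6 of the interferon response genes, while Oas3 overlaps because MockUP replicate 2 is high, and Thy1 is higher in all 4 MockUP libraries.

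DESeq2 called 9 genes lower in MockUP, of the 4141 to which it gave an adjusted p (0.217%). It called 1 higher, Thy1. Of the 9, 6 belong to the interferon response list (Rsad2, Cmpk2, Ifit1, Irf7, Isg15 and Ifit1bl1). The other 3 were Tgtp1, an interferon-induced GTPase with a near-identical copy, Daxx, a histone chaperone, and 1600014C10Rik. DESeq2 gave no adjusted p to the remaining 9570 genes, and 37 of the 46 interferon members had one. The log2 fold changes of these 9 were negative under every alternative run, and the calls depended on the tool.

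Members near 0 were found as well. Irf1, a factor driven mainly by interferon gamma, had 690, 669, 949 and 930 TMM-scaled CPM in MockUP and 827, 690, 929 and 812 in MockDN, with a log2 fold change of -0.01 ± 0.15. Gbp5 stood at -0.03 and Gbp3 at -0.11, both guanylate-binding proteins, though Gbp2, Gbp4 and Gbp6 of the same family did not overlap between groups (-0.36, -0.27 and -0.36). Irf9, a transcription factor of the type I interferon response, overlapped (-0.16). Ly6a, the surface protein Sca-1, stood at -0.13 with MockUP replicate 2 lowest at 321 and the other 7 libraries between 729 and 843.

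**Figure D2:**
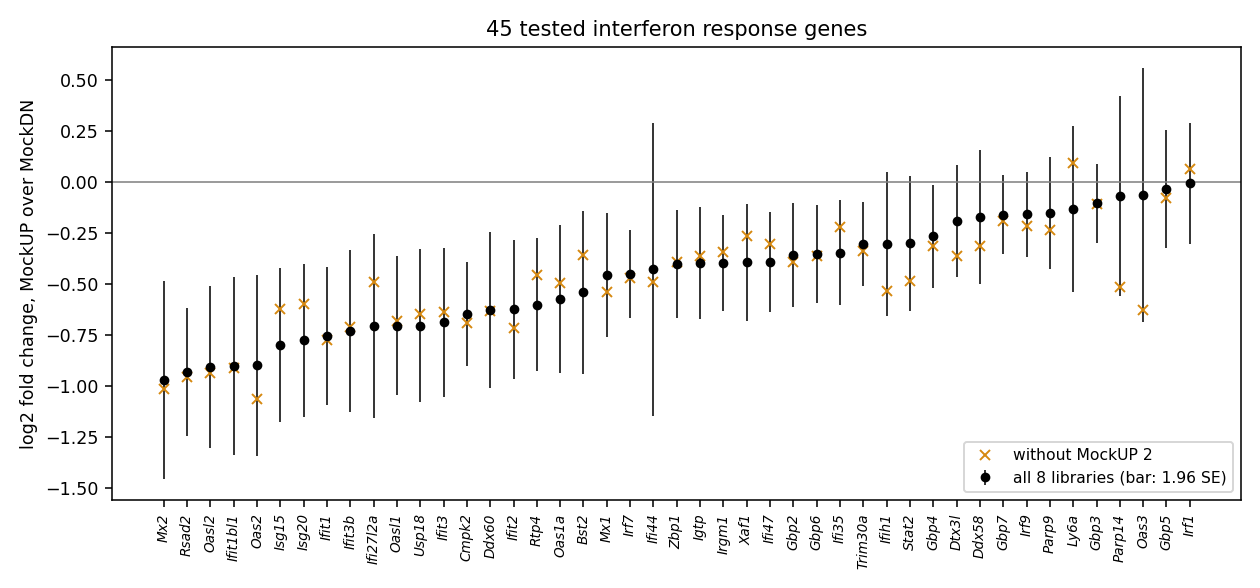
Log2 fold change of MockUP over MockDN (vertical axis) for 45 of the tested interferon response genes, ordered by size, over all 8 libraries (black, with bars of the 95% interval from the SE) and without MockUP replicate 2 (crosses). All 45 black points lie below 0, and without that library 43 do, the exceptions being Irf1 and Ly6a.

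Leaving out MockUP replicate 2 moved the list's median to -0.48, and 37 of 46 members were then lower at an unadjusted p under 0.05, against 3.42% of all genes. The largest moves were in Oas3 and Parp14. Oas3, another RNA sensor, had 78.7, 185, 62.4 and 50.3 TMM-scaled CPM in MockUP and 103, 100, 92.3 and 97.9 in MockDN, so MockUP replicate 2 was the highest of the 8 and the other 3 were the lowest. Its log2 fold change went from -0.07 to -0.63 without that library. Parp14, an ADP-ribosyltransferase, went from -0.07 to -0.52 in the same way, with 127 in MockUP replicate 2 and 46.4 to 78.9 in the other 7. Within replicates 1 and 2 alone the median of the list was -0.53, and within replicates 3 and 4 alone -0.37. The sign was negative in both sets for 41 of the 46 members, against 19.9% of all genes. This is a description and not a replication, since the list was chosen with its low level in these libraries known.

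Receptor chains and kinases that receive and pass on the interferon signal had values near 0. Ifngr1, the ligand-binding chain of the interferon gamma receptor, had 1429 ± 75.6 TMM-scaled CPM in MockUP and 1329 ± 96.4 in MockDN (SD, n = 4; log2 fold change 0.11). Ifnar1 and Ifnar2, the chains of the type I interferon receptor, stood at 0.11 and -0.04, and the kinases Jak1 and Tyk2 at 0.07 and 0.09, none called by edgeR. Without MockUP replicate 2, Ifnar1, Jak1 and Tyk2 were at -0.05, -0.06 and -0.11. The factors Stat2 and Irf9, which act further along the signal and are members of the interferon response list, had negative values. They stood at -0.303 ± 0.169 and -0.161 ± 0.107 (SE) over all 8 libraries, and at -0.485 and -0.217 without MockUP replicate 2. Neither was called by edgeR. Ifng itself had 391, 257, 686 and 637 in MockUP and 499, 500, 642 and 665 in MockDN, overlapping groups in which replicates 1 and 2 were lower than replicates 3 and 4 (-0.23 ± 0.25). In MHC class I presentation, which interferons also raise, 21 of 23 genes had a negative sign with a median of -0.13, and 2 of 23 were lower at an unadjusted p under 0.05 (H2-T22 at -0.34 and Tapbp at -0.19), against 1.71% of all genes.

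Markers of other cell types were read beside these values. All 8 tested markers of melanocytes and melanoma had a positive log2 fold change, with a median of 0.80, and 5 of the 8 were at an unadjusted p under 0.05, against 1.44% of all genes. None was called by edgeR, and without MockUP replicate 2 the median was 0.83 with 2 of 8 at that p. Their summed level was 99.7, 127, 87.0 and 122 TMM-scaled CPM in MockUP and 81.0, 37.2, 98.1 and 39.3 in MockDN, so the groups overlapped and MockDN replicates 2 and 4 were the low ones. Pmel, a pigment-granule protein, had 33.0, 47.2, 30.9 and 48.4 in MockUP and 29.1, 14.6, 38.5 and 16.3 in MockDN. Tyr, the enzyme that starts melanin synthesis, had at most 3.14 in any of the 8 and did not overlap between groups. The markers of macrophages and monocytes summed to 170 to 272 in MockUP and 193 to 255 in MockDN, and neutrophil markers to at most 2.14 in each library, with 3 of 10 at 0 in all 8. Both tested fibroblast markers were positive, Sparc at 0.87 and another at 4.53. The sums of the fibroblast list were 1.41 to 6.16 in MockUP and 0.414 to 2.06 in MockDN. The gene at 4.53 ranked below Col1a1, itself at 0.0246 CPM per kb of gene length over the 8 libraries, so that value rests on levels near 0. Both tested markers of CD4 T cells were negative (-0.24 and -0.39), with sums of 17.4 to 27.8 and 27.0 to 31.2, and both of endothelial cells were at -0.11 and -0.13. In bulk RNA, more cells of a type and more RNA per cell cannot be told apart, and the part of other cells' RNA in the interferon values was not tested.

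Cytotoxic and differentiation genes showed no call. Gzmb, the main killing protease of these cells, had 10600, 6500, 9870 and 9960 TMM-scaled CPM in MockUP and 9250, 9850, 8690 and 9450 in MockDN (log2 fold change -0.01 ± 0.13). Prf1, the pore-forming protein, overlapped widely, with 631, 447, 341 and 304 against 408, 538, 220 and 277 (0.26 ± 0.29). The stem-like factor Tcf7 had 138, 211, 176 and 150 against 208, 153, 182 and 169 (-0.08 ± 0.15). The checkpoint receptors Pdcd1 and Ctla4 stood at 0.11 ± 0.15 and 0.06 ± 0.12, the glucose transporter Slc2a1 at -0.12 ± 0.09 and the hypoxia-induced mitophagy receptor Bnip3 at -0.35 ± 0.18. Cd3e and Ptprc, which encode a receptor chain and CD45, stood at -0.08 ± 0.08 and 0.08 ± 0.08. The edgeR adjusted p was 0.999 for each of these. The medians of the effector, inhibitory receptor, T cell receptor and stem-like lists lay between -0.07 and 0.08.

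The sign of the median turned without MockUP replicate 2 in 10 of those 26 lists, all with medians near 0. Cytosolic ribosomal protein genes had a median of -0.09 with it (7 of 79 positive) and 0.10 without it (77 of 79 positive). Nuclear genes of the respiratory chain went from -0.10 to 0.09, and effector genes from -0.07 to 0.08. The hypoxia response list kept its sign, at -0.10 with MockUP replicate 2 and -0.19 without it. Without that library, edgeR's test put 5 of its 19 tested genes lower at an unadjusted p under 0.05, against 3.42% of all genes. In the early response and dissociation stress list it put 5 of 27 lower. No gene of these lists was higher at that p. In MockUP replicate 2 the mean log2 level of the ribosomal list was -0.85 relative to the mean of the 8 libraries, and the other 7 lay between -0.24 and 0.43.

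The median of the mitochondrially encoded genes differed in sign between replicates 1 and 2 and replicates 3 and 4. That difference was not tested, and in replicates 1 and 2 the low library was MockUP replicate 2. Within replicates 3 and 4, edgeR called 17 genes higher in MockUP (0.125% of 13647) and 18 lower (0.132%), and 7 of the 17 were encoded by mitochondrial DNA. The cytochrome oxidase subunit mt-Co1 had 1840, 995, 2270 and 2540 TMM-scaled CPM in MockUP and 1650, 1230, 1240 and 1510 in MockDN (log2 fold change 0.44 ± 0.24 over all 8 libraries, 0.80 within replicates 3 and 4, adjusted p = 0.999 and 0.00519). The cytochrome b gene mt-Cytb had 663, 259, 608 and 598 against 537, 569, 355 and 363 (0.22 ± 0.22 and 0.74). The median of the 13 tested genes was 0.19 over all libraries, 0.39 without MockUP replicate 2, 0.74 within replicates 3 and 4, and -0.36 within replicates 1 and 2. The list's mean log2 level, centred on the 8 libraries, was 0.19 and -0.79 in MockUP replicates 1 and 2. It was 0.25 and 0.03 in MockDN replicates 1 and 2, so MockUP replicate 1 lay between those MockDN libraries. Gzma, another granzyme, rose within replicates 3 and 4 (0.66, adjusted p = 0.000643) and stood at 0.14 over all 8. Rgs16, which dampens signalling from chemokine receptors, fell there by 0.61 on the log2 scale (adjusted p = 0.00058) and stood at 0.05 over all 8. None of the interferon response genes was called within those replicates. With 2 libraries a group, the spread was estimated from all 4 groups of the series.

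**Figure D3:**
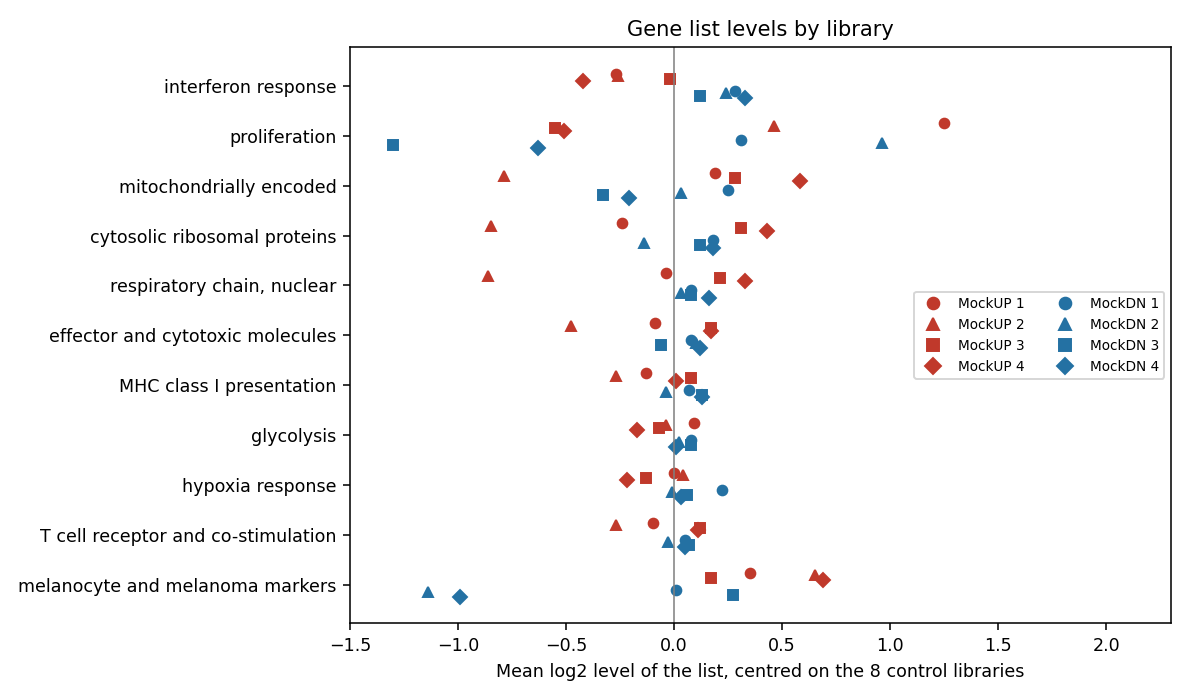
Mean log2 level of 11 gene lists (rows) in each control library, centred on the mean of the 8, with MockUP in red, MockDN in blue and the marker shape giving the replicate. In the interferon row red and blue do not overlap (-0.42 to -0.02 against 0.12 to 0.33), proliferation splits replicates 1 and 2 from 3 and 4 in both groups, and MockUP replicate 2 is the lowest in 3 of the metabolic and translation rows.

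The genes that varied most among the control cells were those of cell division, and they divided the libraries by replicate number. Of the 12 genes of at least 10 mean CPM that varied most over the 8 libraries, 11 act in mitosis or its preparation and the twelfth was Thy1. Nusap1, which binds spindle microtubules, led with an SD of 1.42 on the log2 scale, against a median of 0.211 over 8619 genes. It had 113, 65.4, 18.3 and 21.2 TMM-scaled CPM in MockUP and 59.0, 104, 7.05 and 15.9 in MockDN. In both groups replicates 1 and 2 were high and replicates 3 and 4 were low. The mitotic kinase Plk1 (70.5, 37.0, 13.5 and 10.6 against 31.3, 58.2, 4.51 and 9.83) and the ubiquitin-conjugating enzyme Ube2c (85.6, 27.9, 11.3 and 12.8 against 37.6, 70.9, 5.49 and 10.4) were split in the same way. Mki67, the usual marker of cycling cells, had 118, 101, 30.8 and 31.5 in MockUP and 57.6, 93.6, 15.6 and 25.3 in MockDN (log2 fold change 0.55 ± 0.63, edgeR adjusted p = 0.999). The 35 genes of the proliferation list had a median of 0.29 with 34 positive, and without MockUP replicate 1 the median was -0.22, so its sign rested on that library. What the replicate numbers stand for is not given.

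By counts, the most abundant genes of the control cells included those of the actin cytoskeleton, cytotoxicity, antigen presentation and glycolysis. Actb, cytoplasmic actin, took 1.21% of all counts (12131 CPM on library totals, 9207 to 14651 over the 8 libraries). Gzmb followed at 9342 CPM (6871 to 10935), and Actb and Gzmb held the first 2 ranks in each library. The class I heavy chains H2-D1 (6574 CPM) and H2-K1 (5005 CPM) and their light chain B2m (4759 CPM) ranked 3, 5 and 6, on either side of the actin-binding peptide Tmsb4x (5505 CPM). Because H2-D1 and H2-K1 resemble other class I genes, their counts depend on how shared reads were treated. The glycolytic enzymes Gapdh (4190 CPM), Ldha (4175 CPM), Eno1 (3975 CPM) and Pkm (3062 CPM) were also among the first 20, with the translation factor Eef1a1 (4189 CPM) and the chaperone Hspa8 (3721 CPM). The rest included Bhlhe40, a transcriptional repressor, and feedback regulators of activation, namely Nfkbia and Tnfaip3, inhibitors of NF-kB, and Dusp2, a phosphatase of MAP kinases. The remaining genes were Junb, Malat1, Lcp1 and Shisa5. The 20 genes together took 8.98% ± 0.643 of counts (SD, n = 8), and 691 to 853 genes were needed to reach 50% of a library.

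Per kb of deposited gene length, the scale used here to set levels of genes against each other, the order changed. A length that joins many isoforms lowers this level, and how the lengths were defined is not given. Gzmb was first at 6505 CPM per kb (4785 to 7615 over the 8 libraries) and B2m next at 5534 (2978 to 6705). Actb, 2679 bases long against 1436 for Gzmb, ranked 4 at 4528. The chemokine Ccl4 (2737, from 937 to 4592), Nkg7, a granule membrane protein (1933), and Ccl5 (1114, from 514 to 1730) entered the first 20. So did the polyubiquitin gene Ubb (1455) and mt-Co1 (1078). In all, 12 genes were in both lists of 20. The ranges over libraries of all 19 pairs of neighbours per kb overlapped. Within libraries, 2 of the 19 pairs had the same order in all 8, Tmsb4x above Ccl4 and H2-D1 above Nfkbia, and the order of the others varied between libraries. MockUP replicate 2 was the lowest library for 15 of the 20.

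For 3 features among those 20 the level is uncertain. Gm37376, at rank 3 with 5481 CPM per kb, is an annotated 453-base transcript on chromosome 19 (5801941 to 5802393, mm10) inside Malat1 (5795690 to 5802672) and on its opposite strand, and reads of the 2 cannot be told apart unless counting used strand, which is not given. Trbd1 and Trbj1-1, receptor segments of 12 and 48 bases, are shorter than a read, so dividing by their length gives no level that can be compared.

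**Figure D4:**
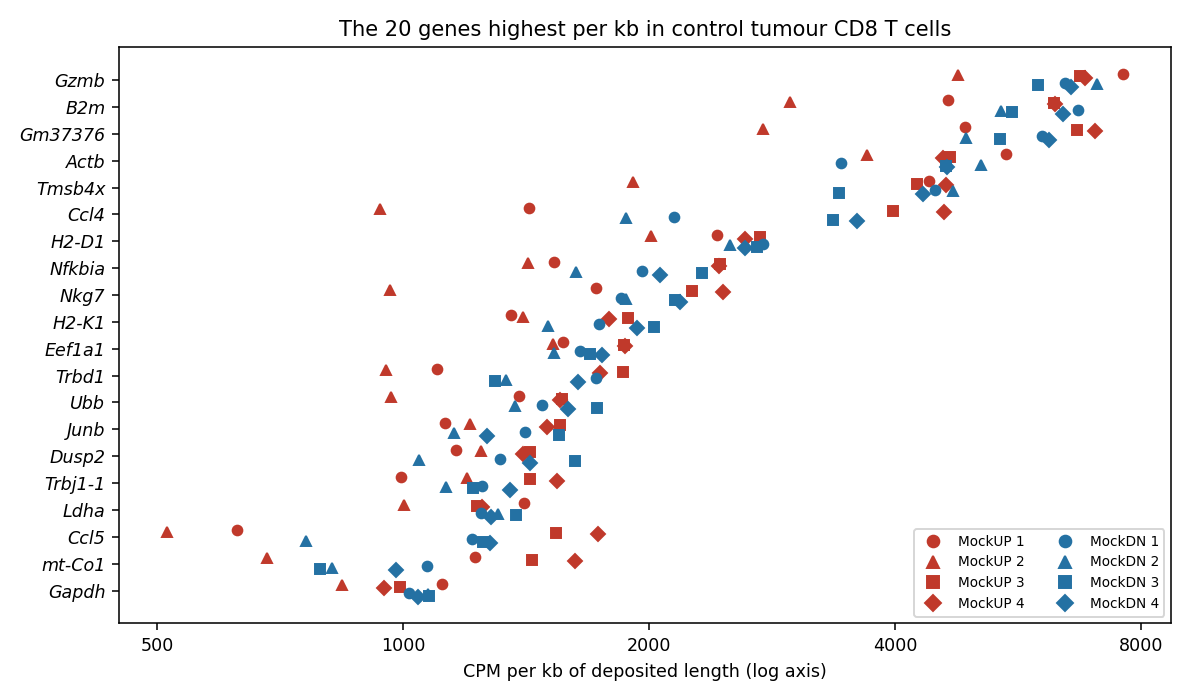
CPM per kb of deposited gene length (log axis) for the 20 highest genes over the control cells, with MockUP in red, MockDN in blue and the marker shape giving the replicate. Gzmb, B2m and Gm37376 lead, the ranges of neighbours overlap, and MockUP replicate 2 (red triangles) is often the lowest.

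Summed by function, the 43 genes of cytoskeleton and motility took 4.54% ± 0.436 of counts (SD, n = 8). The 27 genes of early response and dissociation stress took 2.74% ± 0.327, and the part of cell handling in that share was not tested. The 79 cytosolic ribosomal protein genes took 2.51% ± 0.507, MHC class I presentation 2.46% ± 0.27, glycolysis 2.41% ± 0.177 and effector molecules 2.21% ± 0.34. On the per kb scale, effector molecules took 5.08% ± 0.761 of the summed CPM per kb, the cytoskeleton 5.24% ± 0.538 and the ribosomal genes 4.16% ± 0.7. The interferon response list took 0.762% ± 0.11 of counts, from 0.633% to 0.893%. MockUP replicate 2 had the lowest ribosomal share, 1.51%, and the other 7 libraries lay between 2.19% and 3.13%.

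**Figure D5:**
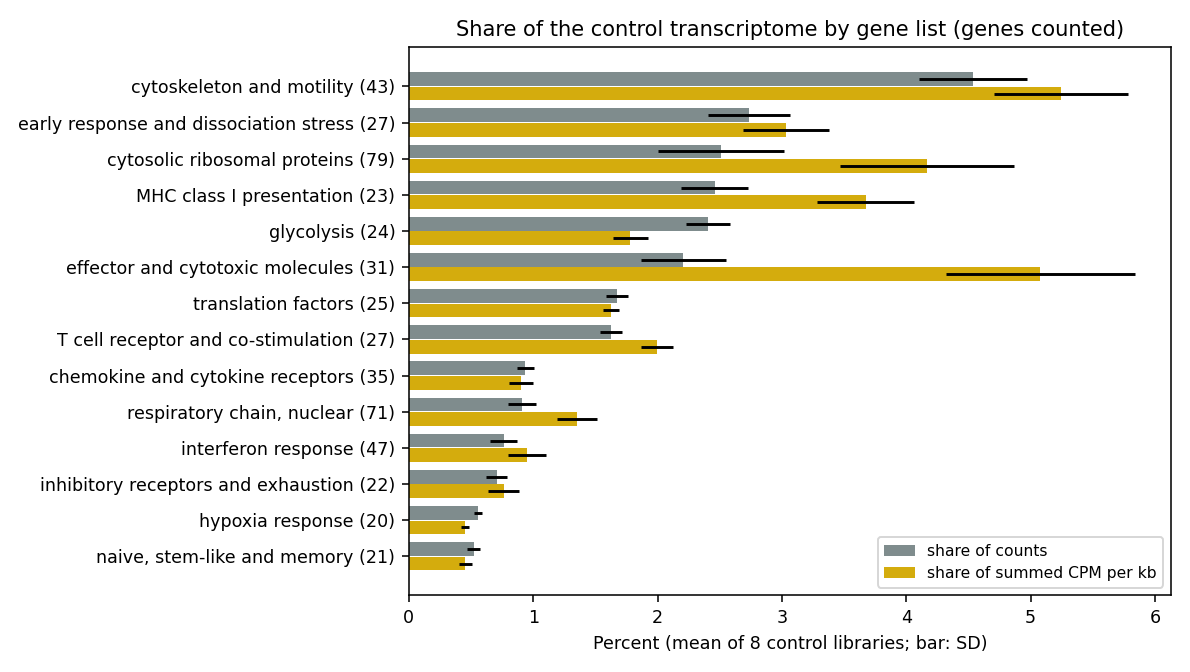
Share of all counts (grey) and of summed CPM per kb (yellow) taken by 14 gene lists, as the mean of the 8 control libraries with SD bars and with the number of genes in brackets. Cytoskeleton has the highest mean on both scales, and per kb its lead over effector molecules (5.24% against 5.08%) is within the SD bars.

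Within functions, the highest members per kb were as follows. Among effector molecules Gzmb was followed by Ccl4 and Nkg7, and among inhibitory and exhaustion genes Rgs16 (796 CPM per kb) by Nr4a1 (480) and Ctla4 (393). Of T cell receptor and signalling genes the constant regions Trbc2 (962), Trac (836) and Trbc1 (798) were highest. Among chemokine and cytokine receptors Cxcr6 (613), a receptor of tissue-resident cells, had a higher mean than the lymph node homing receptor Ccr7 (536, from 275 to 669) and Ifngr1 (488), and the ranges of all 3 overlapped. The list of hypoxia genes was led by Bhlhe40 (738) and Hilpda (375), a lipid droplet protein. In mitochondrial metabolism the nuclear list was led by the ATP synthase subunits Atp5b (432) and Atp5a1 (344), the tricarboxylic acid cycle by Sdhd (160) and Mdh2 (158), and fatty acid oxidation by the dehydrogenases Acadl (90.5) and Acadvl (76.8). The interferon list was led by Ly6a (601), Ifi27l2a (424) and Bst2 (225), a membrane protein that tethers budding virus.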

How the data were processed

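Raw read counts per gene were deposited by the authors for 16 libraries. Per the submitters' processing notes, STAR 2.6.1, Subread 1.6.3 and mm10 were used, while strand and the handling of shared reads are not stated in those notes. Of 55573 gene identifiers, 55480 matched GENCODE M21, which gave the symbols. Deposited gene lengths were used for CPM per kb, and a length that joins many isoforms lowers that level. No column belonged to an unknown sample.

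Genes were kept with edgeR's filterByExpr (minimum count 10), given TMM factors, then fitted in edgeR 4.0.16 (R 4.3.3, quasi-likelihood test, all 16 libraries in 1 fit, contrast MockUP minus MockDN), with Benjamini-Hochberg adjustment and a threshold of 0.05. DESeq2 1.42.0, limma 3.58.1 (voom), other scalings, filters, leaving out each library, replicate blocks and subsets were alternatives. The scripts were tested on simulated data. Group levels are TMM-scaled CPM, and abundance is CPM on library totals. Depth was 9389477 to 12573361 counts, and p-values cover the spread between libraries only. Promoters were read from RefSeq windows (GRCm38.p6). An interferon list member is counted but not reported by name here.

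The groups came from sample titles. Members and gene lists were chosen with earlier results of these data known. Named were 16 fixed genes, genes called, up to 4 called genes of each list, the 20 most abundant genes on each scale, the top 3 of each list per kb, and the 12 most variable. Receptors, the interferon genes with no edgeR call and markers were added after values were seen. Same-numbered MockUP and MockDN libraries had correlated deviations from their group means (0.200, 0.107, 0.358 and 0.313 for replicates 1 to 4). The labels do not say that the numbers pair the libraries. The main fit used the group only and no pairing, and a block on replicate number was an alternative. Only MockUP replicate 3 correlated best with its own number, and MockUP replicate 1 correlated at 0.644 with MockDN replicate 2.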

Additional observations from a re-analysis of the deposited data

Results flagged for a closer look

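In 4 of 106 sets of 4 libraries that were checked, 1 library lay far from the other 3, and chance alone sets apart about 1 in 20. MockUP replicate 2 had 4.86% of its counts in its 10 most abundant genes, while MockUP replicates 1, 3 and 4 had 6.25% to 6.35%. The fatty acid oxidation list was highest in MockUP replicate 1, at a mean log2 level of 0.13, against -0.07 to -0.04 in the other MockUP libraries. The tricarboxylic acid cycle list was highest in MockDN replicate 2, at 0.08, against -0.05 to -0.04. Replication-dependent histone genes were lowest in MockDN replicate 3, at -0.43, against 0.04 to 0.12 in the other MockDN libraries.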

How the results depend on the processing

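The edgeR test called 1 gene, Thy1, and leaving out 1 library at a time gave 1 to 2 genes, the second being Rsad2 without MockUP replicate 3. The count was 2 with no filter on low counts, 2 with limma voom, 10 with DESeq2, 3 with the replicate block without MockUP replicate 2, and 35 within replicates 3 and 4. With the replicate block over all libraries it was 1, and the block over all libraries changed no other call (Rsad2 adjusted p = 0.0633 in edgeR with the block). Among listed genes 0 were called, 0 to 1 when leaving out 1 library, 1 with no filter, 6 with DESeq2, 13 within replicates 3 and 4, and 0 with the replicate block. Fitting the Mock libraries alone without MockUP replicate 2, an alternative chosen after seeing the data, called 1 gene. The share of the 20 most abundant genes was 14.7% of summed CPM per kb in place of 8.98% of counts, with 8.92% to 9.23% when leaving out 1 library, and that of ribosomal protein genes 4.16% in place of 2.51%, with 2.42% to 2.65%. The 14.7% includes Gm37376, Trbd1 and Trbj1-1, whose levels per kb are uncertain. Among the genes recomputed under every setting, signs turned in 8 that no setting called. Log2 fold changes for Cd8a were 0.16 with voom, 0.04 with the replicate block without MockUP replicate 2, 0.11 within replicates 3 and 4 and 0.10 in the Mock libraries without MockUP replicate 2. For Gzmb they were 0.08, 0.10, 0.12 and 0.12 under the same settings, and 0.05 with the length trend removed. Ifng was at 0.06 with voom and 0.01 within replicates 3 and 4, Cd8b1 at 0.04 within replicates 3 and 4, Ptprc at -0.02 with the length trend removed, and Pdcd1 at -0.29 and Ctla4 at -0.19 within replicates 1 and 2. Leaving out 1 library gave -0.16 to 0.09 for Cd8a, -0.10 to 0.12 for Gzmb, 0.00 to 0.51 for Prf1, -0.02 to 0.23 for Pdcd1 and -0.04 to 0.13 for Ctla4. Of the other values, the interferon median ranged from -0.51 to -0.40 over these. The cause of these changes was not tested. With 4 libraries a group and a median standard error of 0.18, small differences were not detectable at this depth and number.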

Other observations

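Among markers of B cells, Ighm was at 93.8 ± 11.1 CPM per kb (SD, n = 8) in the control libraries, while Cd79a, a chain of the B cell receptor complex, was at 0.552 and Cd79b, its partner, at 2.88. The 3 genes that DESeq2 called lower outside the interferon list did not overlap between groups in 1600014C10Rik (71.3, 67.0, 87.4 and 63.6 TMM-scaled CPM in MockUP against 94.0, 104, 114 and 119 in MockDN), in Tgtp1 (49.2, 57.4, 71.6 and 56.9 against 103, 101, 82.0 and 89.2) and in Daxx (202, 221, 255 and 178 against 307, 288, 292 and 300). They were chosen after their values were seen, and the edgeR adjusted p was 0.376, 0.467 and 0.557.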
